A study of Mus musculus with 9 samples.

Results

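The IgLON genes encode small cell adhesion proteins of the immunoglobulin superfamily that are tied to the outer face of the membrane by a glycosylphosphatidylinositol (GPI) anchor. The 4 genes described here, Opcml, Lsamp, Negr1 and Iglon5, were found by their symbols among the 23319 gene symbols counted in every library. They were chosen by the levels of Opcml, which were higher in Nkx2.1 than in VIP libraries, so its value and call in that comparison follow from the choice. The values and calls of all 4 genes there are given as a description with no p-value, and support nothing. All 4 were among the 10728 genes that passed the filter on low counts, and none passed it through 1 group alone. The tables count reads of 9 libraries made from 150 fluorescent cells apiece, which were hand-picked at postnatal day 5 from layer 2/3 of anterior cingulate and medial prefrontal cortex. There were 3 libraries from Nkx2.1-CreER;Ai47 mice with tamoxifen at embryonic day 17 (Nkx2.1 libraries), 3 from SOM-Cre;Ai47 mice (SOM libraries) and 3 from VIP-Cre;Ai47 mice (VIP libraries), where Ai47 is a fluorescent reporter switched on by Cre. Late induction of Nkx2.1-CreER is known for reaching chandelier cells, whose axons contact the initial segment of pyramidal cell axons. The other lines mark somatostatin interneurons, which like chandelier cells arise in the medial ganglionic eminence, and vasoactive intestinal peptide interneurons, which arise in the caudal one. Only the Nkx2.1 mice had tamoxifen by their labels, so the line and the drug cannot be told apart.

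IgLON proteins bind one another, as like or unlike pairs, through their immunoglobulin domains, both across and within membranes. They take part in neurite outgrowth, axon guidance and synapse formation, and metalloproteinases can shed them from the cell surface. Opcml (OBCAM) was first purified as an opioid-binding protein and its human counterpart is a tumour suppressor. Lsamp is the limbic system-associated membrane protein, Negr1 promotes neurite growth and lies at a locus tied to body weight in people, and Iglon5 encodes the antigen of a human autoimmune sleep and movement disorder. The remaining IgLON gene of the mouse is Ntm, which encodes neurotrimin.

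Opcml lies on chromosome 9 from 27790775 to 28925410 on the plus strand (GRCm38, GENCODE M21), Lsamp on chromosome 16 from 39984361 to 42181679 on the plus strand, Negr1 on chromosome 3 from 156561794 to 157316445 on the plus strand and Iglon5 on chromosome 7 from 43472904 to 43490075 on the minus strand. The first 3 are among the long genes of the mouse, at 1134.6, 2197.3 and 754.7 kb, while Iglon5 spans 17.2 kb. No other counted gene overlapped any of them. On the normalized scale used below, the Nkx2.1 libraries stood highest for Negr1 and lowest for Iglon5. The 250 bases before the RefSeq start (GRCm38.p6) are shown for Negr1 and for Iglon5. They are chr3:156561544-156561793 on the plus strand and chr7:43490212-43490461 on the minus strand, read 5′ to 3′ along the gene, with CG dinucleotides in capitals.
Negr1: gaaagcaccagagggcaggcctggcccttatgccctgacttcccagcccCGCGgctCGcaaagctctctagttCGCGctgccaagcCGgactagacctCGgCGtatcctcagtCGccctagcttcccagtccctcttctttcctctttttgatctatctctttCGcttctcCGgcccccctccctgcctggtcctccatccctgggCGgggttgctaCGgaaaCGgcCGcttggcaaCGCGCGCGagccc
Iglon5: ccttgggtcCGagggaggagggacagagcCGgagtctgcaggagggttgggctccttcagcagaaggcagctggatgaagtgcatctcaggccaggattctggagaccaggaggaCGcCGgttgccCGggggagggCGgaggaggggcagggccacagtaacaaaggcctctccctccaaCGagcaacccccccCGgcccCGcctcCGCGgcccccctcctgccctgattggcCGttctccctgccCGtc
These windows held 19 and 13 CG dinucleotides, against a median of 6 over 32851 RefSeq windows of the same length, and 63.6% and 68.8% G or C, against a median of 52.4%. The Opcml window had 8 CG dinucleotides and 52.0% G or C, close to the medians. It lay wholly within annotated Opcml exon, past the GENCODE start given above, while the Negr1 and Iglon5 windows held 0 exon bases. It is therefore not a like comparison with theirs. The TATA box letters TATAAA, searched on both strands, were in none of the windows of the 4 genes, and 12.4% of all windows held them.

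The libraries held 6484488 to 12465997 reads in genes. Within a group the correlation of log2(CPM + 1) across genes, which are not independent replicates, was 0.485 to 0.506 for Nkx2.1, 0.668 to 0.715 for SOM and 0.575 to 0.646 for VIP. The driver genes went with the labels. Sst averaged 17.6 ± 18.1 CPM in Nkx2.1, 1730 ± 379 in SOM and 0.0409 ± 0.0708 in VIP libraries, and Vip averaged 1.17 ± 2.03, 0.419 ± 0.726 and 634 ± 201 CPM in the same order (SD, n = 3 each). Nkx2-1 was barely counted, at 0.764 ± 0.644 CPM in its own line, 0.0381 ± 0.0660 CPM in SOM libraries and 0 in VIP. Lhx6 averaged 1440 ± 489, 740 ± 118 and 0.0818 ± 0.142 CPM and Prox1 averaged 0, 0.229 ± 0.396 and 489 ± 176 CPM, again in the order Nkx2.1, SOM, VIP. All 7 GABAergic markers in the tables were present in all 9 libraries, and their summed level was 3170 to 6960 CPM. Summed excitatory neuron markers were at most 156 CPM in any library, microglial markers at most 17.8 CPM and endothelial and mural markers at most 17.6 CPM. The 8 astrocyte markers summed to 3560, 663 and 253 CPM in Nkx2.1 replicates 1 to 3, to 63.9 to 211 CPM for SOM and to 262 to 412 CPM for VIP. Aqp4, Gja1 and Aldoc of that list had 0 reads in Nkx2.1 replicates 2 and 3. Slc1a3 and Fabp7 averaged 649 ± 878 and 550 ± 609 CPM in Nkx2.1 against 21.7 ± 36 and 57.3 ± 45.7 in VIP libraries. Slc1a2 and Gja1 went the other way, at 66.5 ± 59.8 and 0.378 ± 0.655 against 272 ± 87.1 and 4.79 ± 8.29 CPM. The 8 oligodendrocyte lineage markers summed to 259 to 302 CPM in Nkx2.1, 100 to 264 in SOM and 1.72 to 111 in VIP libraries. Olig2 was at 0 in all Nkx2.1 and all VIP libraries. Pdgfra and Cspg4 averaged 129 ± 117 and 83.9 ± 98 CPM in Nkx2.1 against 1.22 ± 1.81 and 0.0409 ± 0.0708 in VIP libraries. Mog alone of the list had a lower mean in Nkx2.1 than in VIP libraries, at 0.757 ± 1.31 against 5.4 ± 6.71 CPM. In bulk libraries like these, fewer cells of a type and less RNA per cell cannot be told apart.

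Opcml followed the order Nkx2.1, SOM, VIP with no overlap between any of the 3 groups. The Nkx2.1 libraries had 935, 981 and 706 CPM (counts scaled to a common library total after TMM normalization), the SOM libraries 502, 484 and 553 CPM and the VIP libraries 79.9, 144 and 119 CPM. Every Nkx2.1 library was above every SOM library, and every SOM library was above every VIP library. Its coefficient of variation within a group was 16.8% in Nkx2.1, 6.98% in SOM and 28.4% in VIP libraries, against medians of 90.9%, 51.6% and 69.0% over the genes with a mean of at least 10 CPM in the group. These values were below the medians, but the genes behind the medians were not matched to Opcml in level. Choosing a gene for a difference between groups also favours a small spread, so nothing is read from these values.

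Against SOM, Opcml averaged 874 ± 147 CPM in Nkx2.1 and 513 ± 35.8 CPM in SOM libraries (SD, n = 3 each), a ratio of 1.70. The fitted log2 fold change was 0.77 ± 0.34 SE and was not called (edgeR quasi-likelihood adjusted p = 0.441, range over the alternatives 0.229 to 0.7). Between SOM and VIP libraries the difference was larger, 513 ± 35.8 against 114 ± 32.5 CPM, a ratio of 4.48 and a log2 fold change of 2.16 ± 0.36 SE. It fell short of the 0.05 threshold in edgeR (adjusted p = 0.0702), and the alternatives ran from 2.27e-05 with the DESeq2 Wald test, which called it, to 0.309 without SOM replicate 3. Both comparisons share libraries with the one that chose Opcml and are not independent of that choice. In Nkx2.1 against VIP, the comparison of the choice, Opcml stood at 874 ± 147 against 114 ± 32.5 CPM, a ratio of 7.64 and a log2 fold change of 2.93 ± 0.37 SE. Its call there was lost without VIP replicate 3, at a log2 fold change of 2.96, and in a fit of these 2 groups alone, at 2.95. The summed oligodendrocyte lineage markers were also higher in Nkx2.1 than in VIP libraries, at 259 to 302 against 1.72 to 111 CPM, with 1 to 5 and 4 to 5 of the 8 markers at 0. Their part in the level of Opcml was not tested.

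**Figure D1:**
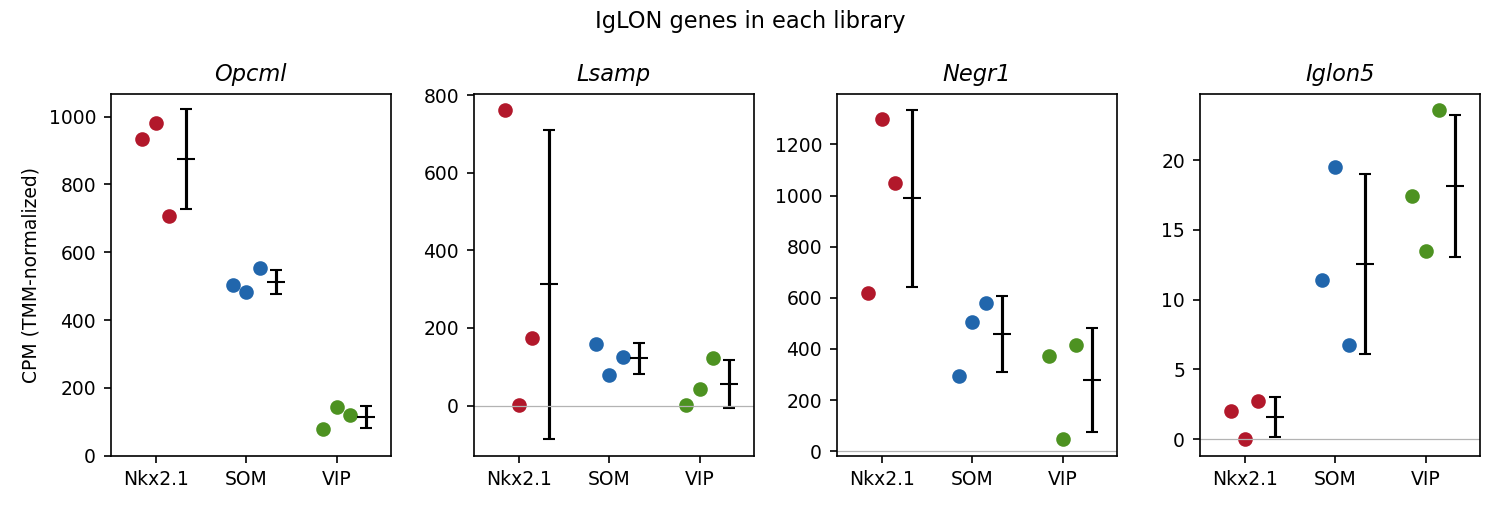
Level of each IgLON gene in CPM (linear axes, 1 scale per gene) in the Nkx2.1, SOM and VIP libraries; points are libraries in replicate order from left to right, and the bar beside them is the mean ± SD of 3. Opcml steps down over the groups without overlap, Lsamp runs between 0.677 and 762 CPM within the Nkx2.1 group alone, and Iglon5 is at 2.73 CPM or less in all Nkx2.1 libraries.

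Negr1 had the same order of group means as Opcml but a wider spread. Its levels were 617, 1300 and 1050 CPM for Nkx2.1, 293, 506 and 578 CPM for SOM and 374, 47.3 and 415 CPM for VIP. On this TMM-normalized scale the Nkx2.1 libraries were all above the SOM and the VIP libraries, while SOM and VIP libraries overlapped. The lowest Nkx2.1 library was close to the highest SOM library, and its place depended on the scaling. In CPM without the TMM factors, Nkx2.1 replicate 1 (factor 0.8118) was at 501. SOM replicates 2 and 3 were above it, at 528 and 589, so Nkx2.1 and SOM libraries then overlapped. VIP replicate 2 was the low one of its group.

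Against SOM the mean of Negr1 was 988 ± 346 CPM in Nkx2.1 and 459 ± 148 CPM in SOM libraries (log2 1.11 ± 0.67 SE, edgeR adjusted p = 0.622). The SOM and VIP means, 459 ± 148 and 279 ± 201 CPM, differed by less than the SD of the VIP libraries (log2 0.72 ± 0.66 SE, edgeR adjusted p = 1). Without VIP replicate 2 the log2 value was 0.24. Between Nkx2.1 and VIP the means were 988 ± 346 and 279 ± 201 CPM, a ratio of 3.55 (log2 1.83 ± 0.68 SE).

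Lsamp had no order of groups beyond its spread. The Nkx2.1 libraries gave 762, 0.677 and 174 CPM, the SOM libraries 159, 79.6 and 126 CPM and the VIP libraries 0.123, 43.4 and 122 CPM. Nkx2.1 replicate 2 and VIP replicate 1 held 8 reads and 1 read of it, where the other 7 libraries held 420 to 6713 reads. Within a group the highest library exceeded the lowest by 1130-fold in Nkx2.1 and 998-fold in VIP libraries, against 1.99-fold in SOM libraries. These ratios have no floor, and the 998-fold rests on the 1 read of VIP replicate 1. Wide spreads were common in these libraries. With values under 3 reads raised to 3, 39.3% of genes averaging at least 10 CPM in Nkx2.1 had a range of at least 100-fold. In SOM and VIP libraries the shares were 7.49% and 18.5%.

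The mean of Lsamp was 312 ± 399 CPM in Nkx2.1 and 122 ± 39.7 CPM in SOM libraries (log2 1.36 ± 1.83 SE, edgeR adjusted p = 0.94). Without Nkx2.1 replicate 1 the log2 fold change turned to -0.47. That library also had the highest summed astrocyte markers, 3560 CPM against 663 and 253 CPM in the other Nkx2.1 libraries, with 0 of the 8 markers at 0 reads there. The other Nkx2.1 libraries did not keep that order, since replicate 2, at 663 CPM of the markers, had 0.677 CPM of Lsamp. Replicate 3, at 253 CPM of the markers, had 174 CPM of Lsamp. The part of those markers in the level of Lsamp was not tested. Between SOM and VIP the means were 122 ± 39.7 and 55.3 ± 62.0 CPM (log2 1.14 ± 1.82 SE, edgeR adjusted p = 1), and the log2 value was 0.57 without VIP replicate 1 and 2.48 without VIP replicate 3. In Nkx2.1 against VIP the means were 312 ± 399 and 55.3 ± 62.0 CPM (log2 2.50 ± 1.90 SE), and the log2 value was 0.68 without Nkx2.1 replicate 1, 3.08 without Nkx2.1 replicate 2 and 3.85 without VIP replicate 3.

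Iglon5 ran the other way. It had 18, 0 and 33 reads in Nkx2.1 libraries, or 2.04, 0 and 2.73 CPM, where the 0 allows up to 0.254 CPM for counting error. Levels of 11.4, 19.5 and 6.75 CPM were found for SOM and of 17.4, 13.5 and 23.6 CPM for VIP. All Nkx2.1 libraries were below all of the other 6, and SOM and VIP libraries overlapped. With 59 to 288 reads in the libraries of the other groups and 910 reads in all, Iglon5 was the least counted of the 4 genes in total. In VIP replicate 1 Lsamp was lower, at 1 read against 142.

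The mean of Iglon5 was 1.59 ± 1.42 CPM in Nkx2.1 and 12.5 ± 6.48 CPM in SOM libraries, 7.88-fold lower, with a log2 fold change of -2.97 ± 1.94 SE that was not called (edgeR adjusted p = 0.67). With 1 library left out this value was -3.60 (without Nkx2.1 replicate 3) to -2.38 (without Nkx2.1 replicate 2). The SOM and VIP means were 12.5 ± 6.48 and 18.2 ± 5.08 CPM (log2 -0.54 ± 1.80 SE, edgeR adjusted p = 1). Set against VIP, the means were 1.59 ± 1.42 CPM in Nkx2.1 and 18.2 ± 5.08 CPM in VIP libraries, 11.4-fold lower in Nkx2.1 (log2 -3.50 ± 1.99 SE, and -4.14 to -2.92 without the same libraries).

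By comparison, 0 of the 4 genes were called by edgeR in Nkx2.1 against SOM, where 0.0932% of all tested genes were called. At an unadjusted p under 0.05 there was 1 (Opcml), against 11.3% of all tested genes. The DESeq2 Wald test called 0, against 7.73% of the 9941 genes to which it gave an adjusted p. The groups did not overlap for 2 of the 4 on the higher side (Opcml and Negr1, 5.90% of all genes) and for 1 on the lower side (Iglon5, 14.0%). Without the TMM factors the groups overlapped for Negr1. In SOM against VIP edgeR called 0 of the 4, against 0.0746% of all genes. There 1 (Opcml) was past an unadjusted p of 0.05, against 6.99%. DESeq2 called 1 (Opcml), against 3.84% of its 9941 genes with an adjusted p. Opcml was also the only one whose SOM and VIP libraries did not overlap, on the higher side (10.9% of all genes). In Nkx2.1 against VIP edgeR called 1 (Opcml; 0.308% of all genes), and the groups did not overlap for Opcml and Negr1 on the higher side (7.31%) and Iglon5 on the lower side (12.8%). The choice of Opcml was made on this comparison, so nothing is read from these counts. The median log2 fold change of the 4 was 0.94, 0.93 and 2.16 in Nkx2.1 against SOM, SOM against VIP and Nkx2.1 against VIP, where the medians over all tested genes were -0.01, 0.00 and 0.00. The 3 comparisons share libraries, and the genes were chosen with such values known, so these medians are a description.

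**Figure D2:**
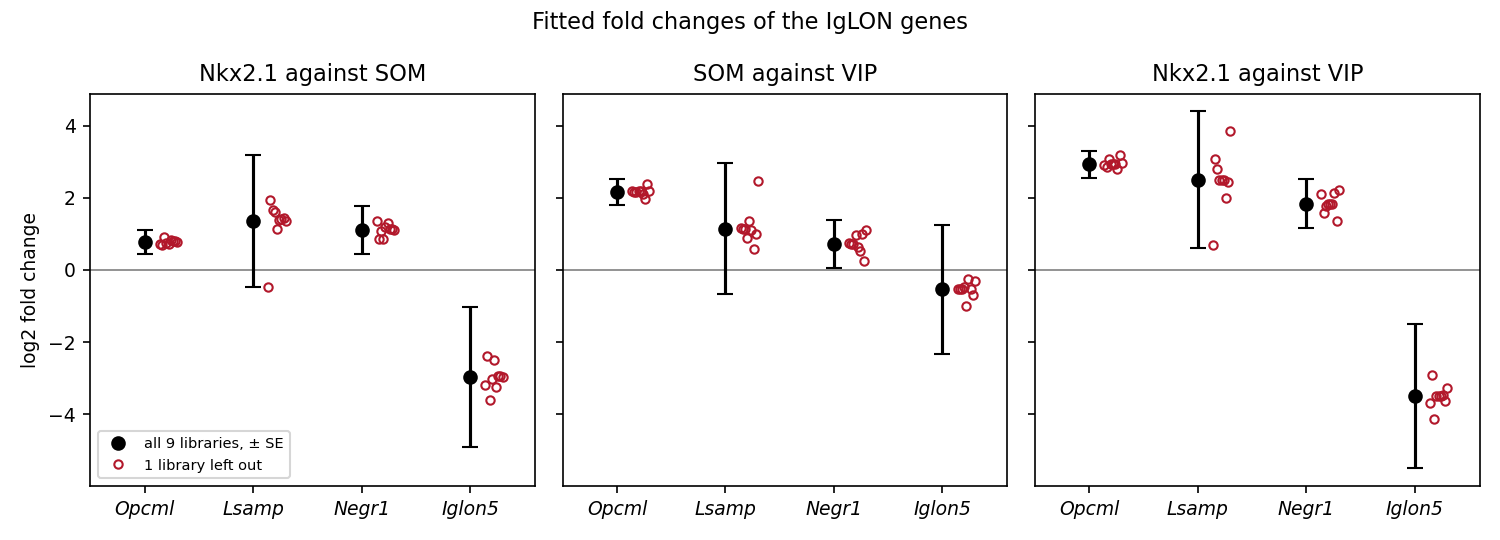
Fitted log2 fold change (first group over second) of each IgLON gene in the 3 comparisons; filled points with bars are the fit to all 9 libraries ± SE, and open points leave out 1 library each. Opcml moves least (0.68 to 0.91 in Nkx2.1 against SOM), while Lsamp runs from -0.47 to 1.95 in the same comparison.

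To compare the genes with one another, CPM were divided by the kilobases of exon annotated for each (14519, 17213, 10506 and 2622 bases for Opcml, Lsamp, Negr1 and Iglon5). Negr1 then had the highest mean level in each group and Opcml the next. In Nkx2.1 libraries the levels per kilobase were 94.1 ± 32.9 for Negr1, 60.2 ± 10.1 for Opcml, 18.1 ± 23.2 for Lsamp and 0.607 ± 0.542 for Iglon5. In SOM libraries they were 43.7 ± 14.1, 35.3 ± 2.47, 7.06 ± 2.31 and 4.78 ± 2.47 in the same gene order. In VIP libraries they were 26.5 ± 19.2, 7.88 ± 2.24, 3.21 ± 3.6 and 6.94 ± 1.94. The order of the means did not hold in every library. Opcml was above Negr1 in Nkx2.1 replicate 1 (64.4 against 58.7), SOM replicate 1 (34.6 against 27.9) and VIP replicate 2 (9.94 against 4.5). Iglon5 was above Opcml in VIP replicate 1 (6.64 against 5.5) and replicate 3 (9 against 8.2).

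The sum over the 4 genes was 168, 191 and 160 CPM per kilobase for Nkx2.1 and 76.0, 93.6 and 103 for SOM. For VIP it was 47.7, 22.1 and 63.8. The groups did not overlap, but the sum holds Opcml, chosen for being higher in Nkx2.1 than in VIP libraries. Nothing is therefore read from that gap. Between SOM and VIP libraries Negr1, Lsamp and Iglon5 each overlapped. Opcml made up 34.7% ± 3.95 of the sum in Nkx2.1, 39.4% ± 5.33 in SOM and 23.1% ± 18.9 in VIP libraries. In VIP replicate 2, where Negr1 was low, Opcml reached 44.9%, against 11.5% and 12.9% in VIP replicates 1 and 3. Iglon5 made up 0.372% ± 0.336 in Nkx2.1, 5.38% ± 2.74 in SOM and 17.1% ± 5.37 in VIP libraries. These shares depend on the length used: with the longest annotated transcript they were 0.177%, 2.62% and 8.96% for Iglon5 and 35.8%, 41.5% and 26.5% for Opcml, in the same order of groups.

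**Figure D3:**
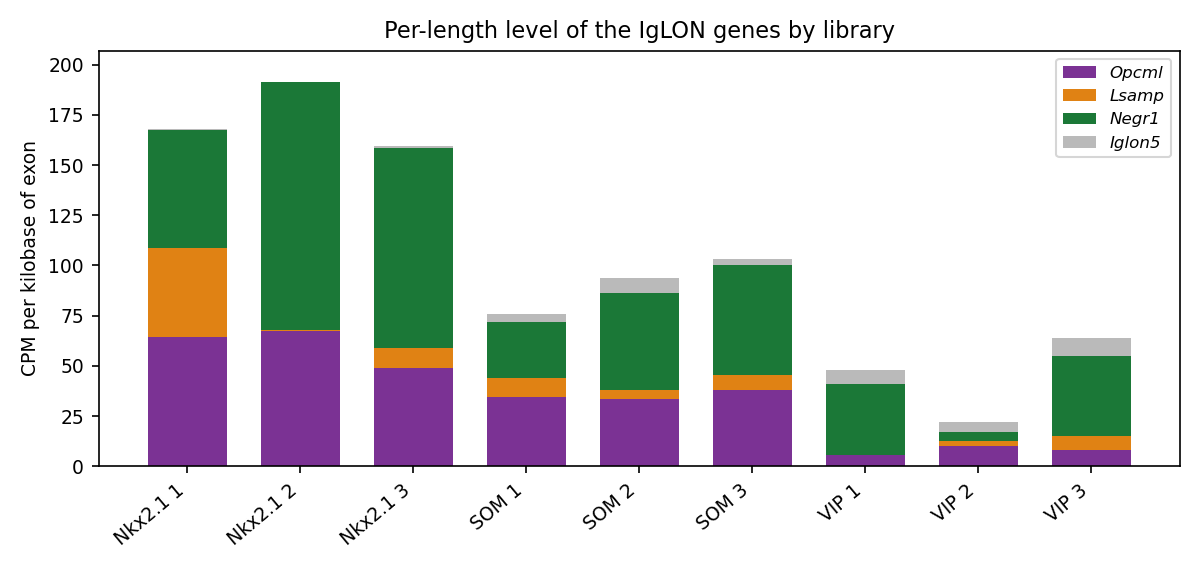
Level of the 4 IgLON genes per kilobase of annotated exon (CPM per kilobase, stacked) in each of the 9 libraries. Negr1 and Opcml make up most of each bar, Lsamp is visible mainly in Nkx2.1 replicate 1 (44.3 CPM per kilobase), and the Iglon5 segment is at most 1.04 CPM per kilobase in Nkx2.1 libraries and 2.57 or more in SOM and VIP libraries.

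Among the 4 genes, Opcml and Negr1 had a Pearson correlation of log2(CPM + 1) of 0.609 over the 9 libraries, and Opcml and Iglon5 one of -0.762. Negr1 and Iglon5 gave -0.589. Lsamp gave 0.352 with Opcml, -0.059 with Negr1 and 0.116 with Iglon5. The libraries share their 3 groups, so these values, like those that follow, describe patterns and carry no test.

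The genes most like each were sought among 9147 tested genes with a mean of at least 10 CPM. Nearest to Opcml were Cntnap3 (r = 0.979), of the contactin-associated proteins, Glcci1 (0.974), the zinc finger gene Zfp462 (0.972), Nxph2 (0.969), of the secreted neurexophilins, and Dcx (0.968), which encodes the microtubule protein doublecortin. Dcx averaged 3380 ± 379 CPM in Nkx2.1, 1850 ± 398 in SOM and 687 ± 103 in VIP libraries. The other genes near Opcml were all but absent from VIP libraries: Cntnap3, Glcci1, Zfp462 and Nxph2 averaged 0.0409, 0.315, 0.542 and 0 CPM there. Opcml itself averaged 114 CPM in those libraries, so the likeness is in the order of the groups and not in the depth of the step.

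Nearest to Lsamp were Polg (r = 0.991), which encodes the mitochondrial DNA polymerase, 4833422C13Rik (0.985) and Pdik1l (0.985). They shared its lows in Nkx2.1 replicate 2 and VIP replicate 1. Nearest to Negr1 were Srsf5 (0.96), a splicing factor, Astn1 (0.952), which encodes the neuronal migration protein astrotactin, and Ip6k2 (0.95), an inositol phosphate kinase. Nearest to Iglon5 were Camk2b (0.963), a calcium-dependent kinase subunit, Wdr34 (0.961) and Nap1l2 (0.96). Camk2b averaged 104 ± 60.3 CPM in Nkx2.1, 324 ± 91.0 in SOM and 411 ± 170 in VIP libraries. By Spearman correlation 2 of the 5 genes nearest to Opcml remained, 1 of 3 for Negr1 and 0 of 3 for Lsamp and for Iglon5.

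**Figure D4:**
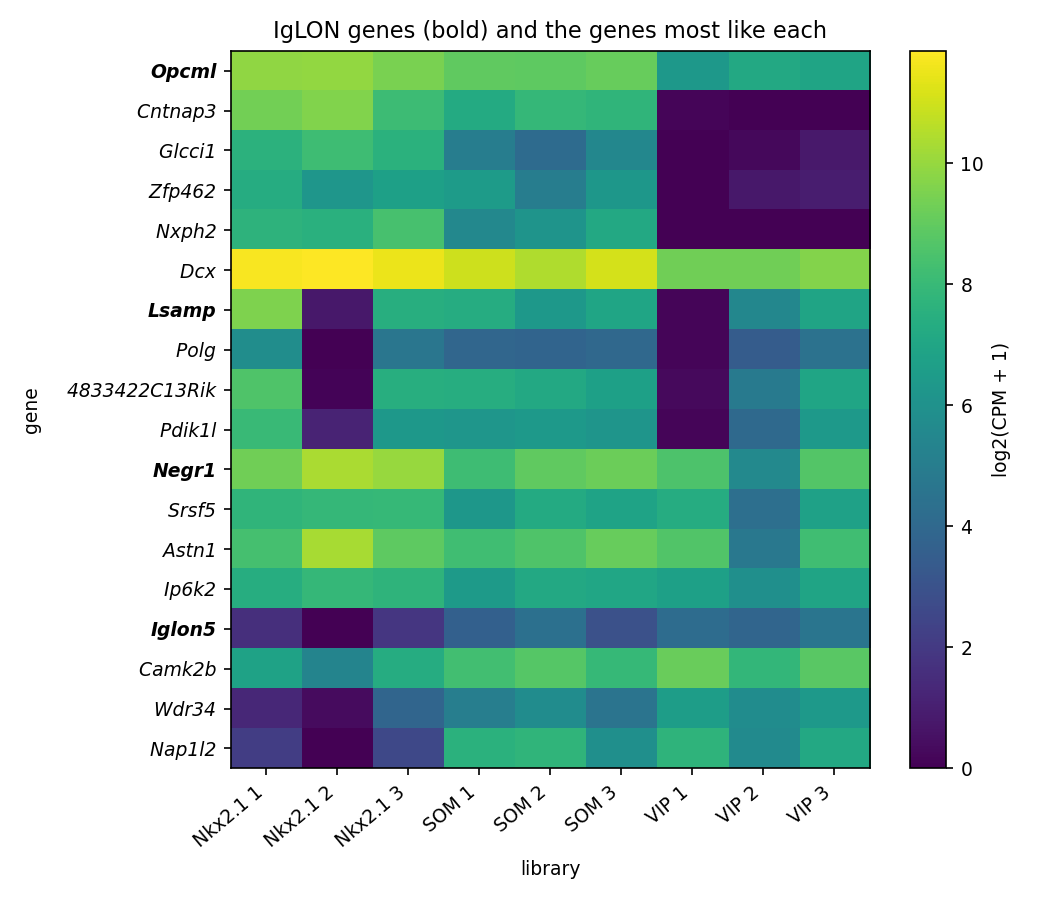
Heat map of log2(CPM + 1) of the 4 IgLON genes (bold) and the genes most like each, in rows, over the 9 libraries, in columns; lighter is higher. The Opcml block darkens from left to right, the Lsamp block is dark in Nkx2.1 replicate 2 and VIP replicate 1, and the Iglon5 block is darkest in the Nkx2.1 columns.

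Ntm had 0 reads in all 9 libraries. It lies next to Opcml on chromosome 9 from 28994750 to 29963141, on the minus strand, within a run of 461 neighbouring minus-strand protein-coding genes of that chromosome, from 21294275 to 124476898, without a read in any library. In all, 36 of 522 such genes on that strand had a read, against 388 of 585 on the plus strand, which holds Opcml. The 0 of Ntm was therefore not read as a level. On the strands of the other genes reads were found for 198 of 270 protein-coding genes (Lsamp), 335 of 458 (Negr1) and 521 of 956 (Iglon5).

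Genes of related function were read in 5 lists. Of the 9 GPI-anchored immunoglobulin adhesion genes outside the family, 8 were tested and edgeR called 0 in any comparison. Over all genes 11.3%, 6.99% and 15.2% were at an unadjusted p under 0.05 in Nkx2.1 against SOM, SOM against VIP and Nkx2.1 against VIP. DESeq2 called 7.73%, 3.84% and 12.7% of the 9941 genes to which it gave an adjusted p. These are the shares to set beside the counts of each list. Of the 8 genes 0, 1 and 0 were at an unadjusted p under 0.05, and DESeq2 called 0 in each comparison. The median log2 fold change of the 8 was -0.25, 0.45 and 0.68. The most abundant were Cntn1, a contactin of axons and synapses, at 427 ± 481, 1320 ± 278 and 238 ± 64.2 CPM (Nkx2.1, SOM, VIP), and Mdga2, which binds neuroligins, at 344 ± 233, 187 ± 96.4 and 228 ± 151 CPM. Cntn1 was thus highest in SOM libraries, unlike Opcml.

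Of the transmembrane immunoglobulin superfamily adhesion genes 26 of the 29 symbols were in the tables and 23 were tested. edgeR called 0 of them, with 6, 5 and 9 past an unadjusted p of 0.05 and 3, 0 and 6 called by DESeq2 in the same order of comparisons. Chl1, of the L1 family, averaged 1770 ± 439, 1910 ± 292 and 877 ± 257 CPM and the synaptic adhesion gene Cadm1 averaged 1220 ± 227, 1090 ± 52.2 and 706 ± 107 CPM over the groups in that order. The median log2 fold change of the 23 was -0.47, 0.12 and -0.37. The order of groups seen for Opcml, without overlap between any of them, was also found in this list. Alcam averaged 873 ± 137, 282 ± 56.3 and 123 ± 83.9 CPM and Dscaml1 497 ± 130, 294 ± 60.7 and 119 ± 65.9 CPM. Igsf8 had the reverse order without overlap, at 25.8 ± 28.2, 222 ± 134 and 754 ± 321 CPM.

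The genes that handle GPI anchors or shed surface proteins held no gene called by edgeR. Of 29 genes of anchor assembly and remodelling 24 were tested and edgeR and DESeq2 called 0 in each comparison, with 0, 0 and 1 past an unadjusted p of 0.05 and medians of -0.78, 0.35 and -0.20 on the log2 scale. Pgap1, which remodels the anchor, averaged 168 ± 134, 329 ± 112 and 64.5 ± 64.3 CPM and Mppe1 averaged 81.3 ± 56.9, 131 ± 35.1 and 63.4 ± 14.9 CPM, again Nkx2.1, SOM and VIP in turn. Of 12 metalloproteinases and their inhibitors 6 were tested, with 0 called by either tool and 0 at an unadjusted p under 0.05, and their medians were -0.32, 0.28 and -0.05. Timp2, an inhibitor, averaged 124 ± 19.9, 194 ± 80.8 and 247 ± 45.7 CPM and Adam10, a sheddase, averaged 90.8 ± 75.7, 176 ± 65.9 and 108 ± 35.1 CPM. Of 6 receptor tyrosine kinases reported to associate with IgLON proteins or related to those that do, 2 were tested, Fgfr2 at 47.5 ± 80.3, 32.2 ± 26.2 and 0 CPM and Fgfr1 at 0.188 ± 0.0920, 12.3 ± 9.33 and 58.1 ± 7.29 CPM. Neither was called by edgeR. Past an unadjusted p of 0.05, and called by DESeq2, were Fgfr1 on the lower side in Nkx2.1 against SOM and Fgfr2 on the higher side in SOM against VIP. In Nkx2.1 against VIP this held for Fgfr2 on the higher and Fgfr1 on the lower side. The Nkx2.1 and VIP libraries overlapped for Fgfr2 but not for Fgfr1.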

How the data were processed

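The authors deposited raw counts of reads per gene symbol for each library. The submitters' processing notes name TopHat2 2.0.9, DESeq2 and mm10 without saying what each did. Which program counted the reads, and with which strand setting, is not given in the sources used here. The 5 summary entries of a library, which name no gene, held 83.6% to 85.2% of all its counts and were left out. With 6484488 to 12465997 reads in genes, the floor of 3 reads was 0.246 to 0.444 CPM. Bounds from this floor cover counting error only.

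All 9 libraries were fitted together in R 4.3.3 by edgeR 4.0.16 (quasi-likelihood test), on group, after TMM normalization and a filterByExpr filter at a minimum count of 10. Benjamini-Hochberg adjustment was over the 10728 tested genes of a comparison, with a threshold of 0.05, and the fit was tested on simulated data. Levels are TMM-normalized CPM of gene rows, and SE were computed back from the F statistic. Alternatives were other scalings, no filter, DESeq2 1.42.0, fits of 2 groups, a replicate block and leaving out each library. Same-numbered libraries did not deviate together (correlation -0.033 to 0.064), and the labels tie the number to nothing shared. No label states that replicates are separate animals. The p-values therefore cover only the spread among these samples, part of which may be technical.

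The genes, lists and rules were chosen with earlier results of these data known. Named beside the 4 genes were Ntm, the genes nearest to each (5 for Opcml, 3 for the others), the 2 most abundant genes of each list where none was called, and 5 genes that check the lines. Alcam, Dscaml1 and Igsf8 were added for their order of groups. Exon lengths and coordinates are from GENCODE M21, and start windows from RefSeq.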

Additional observations from a re-analysis of the deposited data

How the results depend on the processing

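Directions of the fold changes of the 4 genes were kept under all alternatives run, except that Lsamp in Nkx2.1 against SOM turned to a log2 value of -0.47 without Nkx2.1 replicate 1. With 1 library left out, the log2 fold change of Lsamp in that comparison was -0.47 to 1.95. The log2 fold change of Opcml was 0.68 to 0.91 in Nkx2.1 against SOM, 1.98 to 2.38 in SOM against VIP and 2.79 to 3.19 in Nkx2.1 against VIP. The number of the 4 genes called was then 0 in the first and in the second comparison and 0 to 1 in the third. In Nkx2.1 against VIP that number was 0, with Opcml at 2.95, both with only the 2 groups compared and with the replicate block, which changed no other call of the 4 genes. The DESeq2 Wald test called Opcml in SOM against VIP (log2 2.11), so that 1 of the 4 genes was called. Of the genes in the 5 related lists DESeq2 called 4, 1 and 8 in Nkx2.1 against SOM, SOM against VIP and Nkx2.1 against VIP, against 0 by edgeR, and edgeR called 1 in SOM against VIP with only the 2 groups compared. With 1 library left out the number was 0 to 1, 0 and 0 to 1. The causes were not tested.

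DESeq2 called 768, 382 and 1262 of all genes in these comparisons, where edgeR called 10, 8 and 33. With only the 2 groups compared edgeR called 5, 32 and 20, with the replicate block 4, 4 and 11, and with no filter 21 in SOM against VIP. With 1 library left out it called 0 to 37, 3 to 17 and 12 to 48. Leaving out the normalization factors moved the median of all genes to -0.167 in Nkx2.1 against SOM and -0.186 in Nkx2.1 against VIP, and Opcml to 0.60 and 2.72. The Nkx2.1 and SOM libraries then overlapped for Negr1, with Nkx2.1 replicate 1 at 501 CPM and SOM replicates 2 and 3 at 528 and 589 CPM. With a pseudocount of 0.5, 1 of the 3 genes nearest to Iglon5 remained. The common biological coefficient of variation over genes was 1.40, and Iglon5 had at most 33 reads in an Nkx2.1 library.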

Other observations

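Opcml, Lsamp and Negr1 are among 188 tested genes whose annotated span is at least 500 kb, a limit chosen with their values known. In Nkx2.1 against SOM the median log2 fold change of these long genes was 0.41, against -0.01 over the 10068 tested genes with a span, and groups did not overlap for 29 of them on the higher side (15.4%, against 5.92% of all genes with a span) and 28 on the lower side (14.9%, against 14.1%). In SOM against VIP the medians were 0.42 and -0.01, with 46 on the higher side (24.5%, against 10.9%) and 13 on the lower side (6.91%, against 9.14%). In Nkx2.1 against VIP they were 0.75 and 0.00, with 36 on the higher side (19.1%, against 7.34%) and 18 on the lower side (9.57%, against 12.9%). By edgeR 1, 0 and 3 of the long genes were called higher and 0 lower in the 3 comparisons, which share libraries. Over all 10728 tested genes 7, 6 and 19 were called higher and 3, 2 and 14 lower. The 3 long genes called in Nkx2.1 against VIP include Opcml, which was chosen on that comparison. Whether span has a part in the levels of the IgLON genes was not tested.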
